A study of Mus musculus with 12 samples.

Results

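RNAs that came down with FLAG-tagged LSM1 from mouse zygotes were compared with those of a control pull-down. The comparison used 4 of the 12 libraries of the series, chosen by their labels: 2 immunoprecipitates from zygotes injected with Lsm1_3XFlag mRNA (FLAG IP) and 2 from control zygotes (Ctrl IP). The 4 input libraries of the same groups were read beside them. All zygotes came from super-ovulated B6D2F1 females 8 to 10 weeks old, mated and injected with in vitro transcribed mRNA after fertilization, and both groups went through the same ANTI-FLAG M2 affinity gel. Tagged LSM1 was therefore made from injected mRNA beside the endogenous protein, whose levels were not measured here, each library was a pool of zygotes, and no line or Cre allele was involved. The control zygotes are described as given untagged Lsm1 mRNA in the treatment labels, while their titles name IgG. The titles number the replicates but do not state whether they came from separate injections, so that every p below measures the spread between these libraries, which may be technical. With 2 libraries against 2, the smallest p an exact two-sided permutation test can give is 0.333.

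LSM1 is the subunit that sets the cytoplasmic LSM1-7 ring apart from the nuclear LSM2-8 ring. The ring sits on the 3' end of RNAs whose poly(A) tail has been shortened or that carry a short U tail, and together with PAT1 proteins it recruits the decapping enzymes that open the RNA to decay from its 5' end. In the zygote, such decay clears mRNAs inherited from the oocyte. RIP-seq reads the RNA that stays with an immunoprecipitated protein, and a control pull-down shows what the gel and tubes retain without the tag. Major satellite RNA, named GSAT_MM in the files, is transcribed from the tandem repeats beside mouse centromeres and was the repeat the study followed further.

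To show what the satellite feature stands for, the study's quantitative PCR primers for it and 1 genomic stretch are given, each 5' to 3', with the forward primer site of the stretch in capitals.
MajSat-F: tggaatatggcgagaaaactg
MajSat-R: aggtccttcagtgggcattt
major satellite stretch: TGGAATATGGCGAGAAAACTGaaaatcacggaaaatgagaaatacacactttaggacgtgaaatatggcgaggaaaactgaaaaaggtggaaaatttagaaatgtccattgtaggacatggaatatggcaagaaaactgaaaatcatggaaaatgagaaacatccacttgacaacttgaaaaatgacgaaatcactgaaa
The stretch is 200 bases of the minus strand at chr9:3001323-3001522 of GRCm38.p6 and overlaps no RefSeq gene. The forward primer matched the assembly exactly at 166 places, 50 of them on chromosome 9, and at 0 of these did an exact match to the reverse primer lie within 300 bases. Each repeat in the files is 1 consensus sequence on which reads from all its copies were counted, so that no repeat below has a genomic position.

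The FLAG IP libraries held 9865512 and 14010414 estimated counts and the Ctrl IP libraries 11400686 and 18969763, against 25612092 to 31586450 in the 4 inputs. FLAG IP replicate 1 stood apart from the other 3 immunoprecipitates. It held at least 1 count for 22020 of the 25091 genes and repeats, where the others held 18698 to 20182, and its Pearson correlation on the log2 scale over genes was 0.826 with FLAG IP replicate 2 and 0.778 and 0.771 with the Ctrl IP libraries. FLAG IP replicate 2 correlated at 0.942 and 0.954 with the Ctrl IP libraries, which correlated at 0.957 with each other. Genes are not independent replicates, and these correlations are descriptions. For this reason the named genes and repeats are given in each library, and for most lists the counts in FLAG IP replicate 2 alone stand beside the joint ones.

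Lsm1 RNA separated the groups in every library. Lsm1 (chromosome 8, 25785318 to 25803975, GRCm38) stood at 11125 and 121440 CPM (a count divided by the library total and given on a common total) in FLAG IP and at 24.6 and 20.2 CPM in Ctrl IP. In the inputs it stood at 9931 and 14731 CPM in FLAG Input and at 16.3 and 16.1 CPM in Ctrl Input. Lsm1 RNA was thus in excess in both FLAG inputs, while no excess of Lsm1 RNA was read in the libraries labelled as injected with untagged Lsm1 mRNA, and what those zygotes received cannot be told from these files. Lsm1 took 1.11% of all counts in FLAG IP replicate 1 and 12.1% in replicate 2, so that the pull-downs differed from each other over 10-fold in the RNA that encodes the bait. Its edgeR log2 fold change was 11.71 (SE 10.15) with an adjusted p of 0.637, and DESeq2 gave it an adjusted p of 3.9e-31. Both FLAG IP libraries were at least 283-fold above both Ctrl IP libraries.

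**Figure D1:**
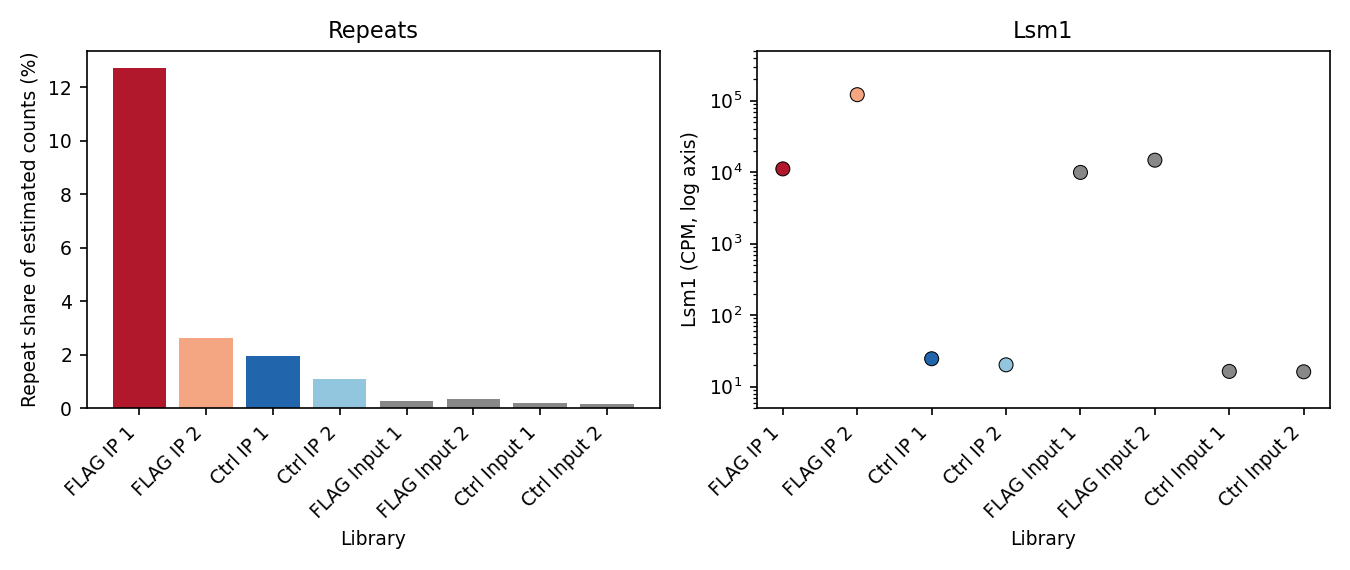
Repeat share of the estimated counts in percent (bars, left) and Lsm1 in CPM on a log axis (points, right) in each of the 8 libraries, with FLAG IP in red, Ctrl IP in blue and inputs in grey. The repeat share is highest in FLAG IP replicate 1 (12.7%), and Lsm1 lies between 9931 and 121440 CPM in the 4 libraries of the FLAG group and between 16.1 and 24.6 CPM in the others.

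Repeats made up more of the RNA in FLAG IP than in Ctrl IP. They took 12.7% and 2.63% of the counts in the 2 FLAG IP libraries and 1.96% and 1.08% in the Ctrl IP libraries. The means were 7.67% ± 7.14 (SD, n = 2) and 1.52% ± 0.625 (SD, n = 2), and the exact two-sided permutation test gave 0.333, the smallest p possible here. The groups did not overlap, but FLAG IP replicate 2 was nearer to Ctrl IP replicate 1 than to its own replicate. In the inputs the repeat share was 0.253% and 0.331% for FLAG and 0.193% and 0.147% for Ctrl, so that the share was higher in every immunoprecipitate, Ctrl IP included, than in every input.

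Counted repeat by repeat, 244 of the 305 repeats tested had both FLAG IP libraries above both Ctrl IP libraries and 0 had both below. Among all 17549 genes and repeats tested the corresponding shares were 26.8% (4706) above and 22.2% (3900) below. In FLAG IP replicate 1 alone, 303 of the repeats lay above both controls and 0 below. In replicate 2 alone, 244 lay above and 9 below, against 6423 and 5971 of all features. A stricter count asked for a gap of at least 2-fold between the lower FLAG IP and the higher Ctrl IP library, on CPM scaled by TMM factors (trimmed mean of M values, which sets most genes level between libraries) with 0.5 CPM added. It was met by 76 of the 305 repeats, which is 24.9%, against a background of 6.52% (1144 of 17549), and the opposite gap by 0 repeats against a background of 0.285% (50). For the repeats the median log2 fold change was 2.49, where that of all features was 0.21. Relative to the mean of Ctrl IP, the median repeat was higher by 3.01 on the log2 scale in FLAG IP replicate 1 and by 0.94 in replicate 2, and all 305 repeats were higher in replicate 1 than in replicate 2. With scaling by library size alone, 219 repeats had both FLAG IP libraries above both Ctrl IP libraries and 38 met the 2-fold gap. The counts of all 17549 features were then 4053 and 825. By this scaling 219 repeats lay above both controls in FLAG IP replicate 2 alone and 19 below, against 4611 and 8149 of all features. The Ctrl IP libraries themselves differed in repeats, with 55 at least 2-fold higher in replicate 1 than in replicate 2 and 16 the other way.

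No repeat passed the test across all features. The quasi-likelihood test of edgeR called 0 features higher (0.0%) and 0 lower (0.0%) at an adjusted p under 0.05 and a log2 fold change beyond 1, with the smallest adjusted p at 0.122. At an unadjusted p under 0.05 the same test had 2150 features higher (12.3%) and 119 lower (0.678%), and 222 of the 305 repeats were among those higher. DESeq2 called 390 features higher (2.22%) and 3 lower (0.0171%), and 88 of the 390 were repeats. The libraries of FLAG IP replicate 1 and replicate 2 differ strongly, and the count of calls turned on them: edgeR called 90 features higher and 19 lower without FLAG IP replicate 1, and 3707 higher and 4121 lower without FLAG IP replicate 2. Each of these fits holds 1 FLAG IP library and takes its spread from the 2 Ctrl IP libraries, so that its calls carry no replication of the pull-down and assume that FLAG IP would vary as Ctrl IP does. The words higher and lower below therefore describe library values, and no feature named below passed the main test.

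Among the repeat families, LINE1 elements stood most uniformly above the control. LINE1 are non-LTR retrotransposons that are read as a full-length RNA from their own promoter. They took 5.61% and 0.930% of the counts in FLAG IP and 0.594% and 0.395% in Ctrl IP, and all 45 tested members had both FLAG IP libraries above both Ctrl IP libraries under TMM scaling (44 by library size alone). The gap reached 2-fold for 16 of them. The most abundant, L1MdTf_III (named after its values were seen), stood at 2969.9 and 1044 TMM-scaled CPM in FLAG IP and 490.1 and 390.0 in Ctrl IP. L1MdA_I, of the A promoter type, stood at 2604 and 785 in FLAG IP and 346 and 312 in Ctrl IP. L1MdMus_II had the widest gap of the well-covered LINE1, with 235 and 63.1 in FLAG IP against 23.01 and 22.9 in Ctrl IP, a log2 fold change of 2.70 (SE 0.67) and an edgeR adjusted p of 0.124. In each of these 3 LINE1 elements FLAG IP replicate 1 was further above replicate 2 than replicate 2 was above the higher control.

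MERVL, an endogenous retrovirus of the ERV3 class whose activation marks the onset of embryonic transcription in the mouse, was the most abundant repeat in every immunoprecipitate. It stood at 21946 and 15481 TMM-scaled CPM in FLAG IP and 9665 and 4961 in Ctrl IP, which is a log2 fold change of 1.36 (SE 3.84) with an edgeR adjusted p of 0.881. The groups did not overlap, yet the 2 Ctrl IP libraries differed from each other by a larger factor than FLAG IP replicate 2 differed from Ctrl IP replicate 1. In the inputs MERVL stood at 393 and 1351 CPM for FLAG and 465 and 235 CPM for Ctrl, and with the inputs as baseline its log2 fold change was -0.10. ORR1B1, a nonautonomous LTR of the same class, stood at 516 and 92.1 in FLAG IP and 59.8 and 44.3 in Ctrl IP. The ERV3 class as a whole took 3.61% and 1.24% of the counts in FLAG IP and 0.953% and 0.448% in Ctrl IP.

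The remaining LTR families followed the same order of libraries at lower levels. Intracisternal A particles (IAP) took 0.851% and 0.103% of the counts in FLAG IP and 0.089% and 0.051% in Ctrl IP, and 18 of the 24 tested had no overlap, all higher in FLAG IP. RLTR2aIAP_MM, an IAP long terminal repeat, stood at 125 and 38.6 TMM-scaled CPM in FLAG IP and 27.5 and 23.8 in Ctrl IP. IAP1-MM_LTR stood at 48.9 and 7.50 in FLAG IP against 1.28 and 1.51 in Ctrl IP, one of the widest gaps of any repeat. RLTR13B3, an ERV2 LTR with the widest gap of the repeats with at least 50 counts, stood at 33.9 and 6.68 in FLAG IP, 0 in Ctrl IP replicate 1 and 0.846 in replicate 2. Only the FLAG IP libraries held enough of its counts for it to be tested. MMERVK10C and IAPEZI are internal sequences, which hold the retroviral genes in intact copies, and were named after their values were seen. MMERVK10C stood at 2095 and 604 in FLAG IP and 418 and 278 in Ctrl IP, and IAPEZI at 1918 and 489 against 389.8 and 264. The ERV2 elements other than IAP had 115 of 145 members with no overlap and ERV1 had 42 of 57, and in both the rest overlapped and none was lower. Beside these families and IAP, 26.8% of all features tested were higher and 22.2% lower without overlap.

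**Figure D2:**
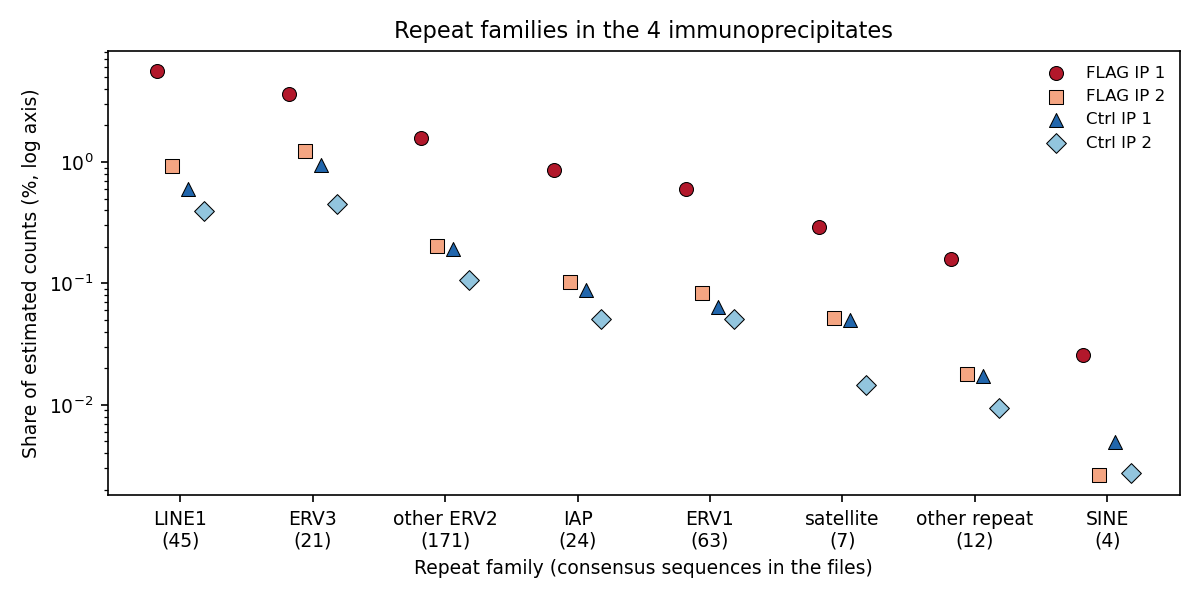
Share of the estimated counts in percent (log axis) taken by each repeat family in FLAG IP (red circle and light square) and Ctrl IP (blue triangle and light diamond), with the number of consensus sequences under each name. In LINE1 and the LTR families both FLAG IP points lie above both Ctrl IP points, with FLAG IP replicate 1 far above the other 3. SINEs overlap.

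The satellites did not reach a 2-fold gap. GSAT_MM, a consensus of 471 nt, stood at 1843 and 650.2 TMM-scaled CPM in FLAG IP and at 515 and 156 in Ctrl IP. Both FLAG IP libraries were above both Ctrl IP libraries, but replicate 2 exceeded the higher control 1.26-fold, while the 2 controls differed from each other over 3-fold. The log2 fold change was 1.90 (SE 1.25), with an unadjusted p of 0.148 and an edgeR adjusted p of 0.544. In the inputs GSAT_MM stood at 14.8 and 21.0 CPM for FLAG and 8.52 and 5.39 CPM for Ctrl, and the log2 fold change with the inputs as baseline was 0.38. All 4 immunoprecipitates thus held GSAT_MM far above their inputs, those of the control included. By library size alone GSAT_MM stood at 507.6 in FLAG IP replicate 2 and 494.8 in Ctrl IP replicate 1.

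Of the other 6 satellite consensus sequences, 4 were tested and their libraries overlapped in 2. SATMIN, the minor satellite of the centromere itself, stood at 16 and 1.28 TMM-scaled CPM in FLAG IP and at 0.365 and 3.20 in Ctrl IP, so that replicate 2 lay between the controls. ZP3AR_MM stood under 1 TMM-scaled CPM in all 4 libraries. IMPB_01 stood at 42.9 and 4.67 in FLAG IP and 1.64 and 3.87 in Ctrl IP. SQR4_MM stood at 34.8 and 5.49 in FLAG IP and 2.56 and 3.33 in Ctrl IP. For the last pair replicate 1 was more than 6-fold above replicate 2, which lay less than 2-fold above the higher control.

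SINEs, the short elements copied by LINE1 enzymes, had 3 members tested and 0 without overlap. FLAG IP replicate 2 lay among or below the controls in each of them, and SINEs took 0.026% and 0.003% of the counts in FLAG IP and 0.005% and 0.003% in Ctrl IP.

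Genes made up most of what met the 2-fold gap. Of the 1144 features, 906 were protein-coding genes, 127 lncRNA genes, 21 pseudogenes, 76 repeats, 11 transcripts matched to no gene and 3 of other classes. Of the protein-coding genes tested 906 of 15666 met it (5.78%), close to the 6.52% of all features, and of the lncRNA genes 127 of 1106 (11.5%). A feature was tested where any 2 libraries held enough counts, and 590 of the 1144 passed this filter through the FLAG IP libraries alone, as did 888 of the 17549, so that the shares among low features depend on the filter. Over all features in the files, tested or not, the gap was met by 5.53% of 25091 features, 5.22% of 20581 protein-coding genes, 8.59% of 2177 lncRNA genes and 23.1% of 347 repeats. Their typical level was low: the median member stood at 8.54 and 3.11 TMM-scaled CPM in FLAG IP and at 0.548 and 0.544 in Ctrl IP. FLAG IP replicate 1 exceeded replicate 2 in 1054 of the 1144.

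The protein-coding genes with the widest gaps, among those with at least 50 counts in both FLAG IP libraries, are given by their values in each library. Both the count floor and the gap pick genes that are high in FLAG IP, so that the values below are descriptions only. Gm1527, Tppp, Sly, Plaat3 and Rem1 also passed the filter through the FLAG IP libraries alone. Gm1527 (chromosome 3), for which no role is given here, stood at 6.79 and 6.86 TMM-scaled CPM in FLAG IP, 0 in Ctrl IP replicate 1 and 0.121 in replicate 2. Tppp, a tubulin polymerization promoter (chromosome 13), stood at 12.1 and 5.13 in FLAG IP and at 0.0913 and 0 in Ctrl IP. These 2 genes were almost without counts in the controls, and so was the next.

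Sly, a multicopy gene of the Y chromosome active in sperm precursors, stood at 4.77 and 4.76 in FLAG IP and had 0 counts in both Ctrl IP libraries, which makes it at least 43.7-fold higher if the control group held 3 counts in all, on the same TMM scale. Its near-identical copies share reads, so that the value belongs to the copies together. Among these protein-coding genes it was the one whose FLAG IP values were level and whose controls were both at 0.

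Plaat3, a phospholipase and acyltransferase (chromosome 19), stood at 14.2 and 7.50 in FLAG IP and 0.639 and 0.605 in Ctrl IP. Rec8, the meiotic cohesin subunit (chromosome 14), stood at 11 and 7.41 in FLAG IP and 0.365 and 0.967 in Ctrl IP. In the inputs Rec8 stood at 0.312 and 0.537 CPM for FLAG and 0 and 0.0390 CPM for Ctrl, and its direction turned with the inputs as baseline. Obox3, an oocyte-specific homeobox gene (chromosome 7, 15625306 to 15639777), stood at 13.1 and 11.8 in FLAG IP and 2.10 and 2.06 in Ctrl IP. The FLAG IP libraries agreed closely in Obox3, whose log2 fold change of 2.58 (SE 0.91) had an edgeR adjusted p of 0.219. It was also read in all 4 inputs, at 1.73 to 3.29 CPM, near its level in Ctrl IP.

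Scn2a, a voltage-gated sodium channel (chromosome 2), stood at 8.67 and 7.32 in FLAG IP and 1.19 and 1.09 in Ctrl IP. Rem1, a small GTPase (chromosome 2), stood at 5.72 and 4.94 in FLAG IP and 0.183 and 0.665 in Ctrl IP. Skil, a repressor of SMAD signalling (chromosome 3, 31095058 to 31122923), stood at 51.0 and 9.15 in FLAG IP and 1.55 and 1.57 in Ctrl IP. Its log2 fold change was 4.26 (SE 0.83), with an unadjusted p of 5.98e-05 and an edgeR adjusted p of 0.122. Sptb and Bend4, which encode erythroid beta-spectrin and a BEN domain protein, showed the same order. Sptb stood at 32.8 and 7.87 in FLAG IP and 1.19 and 1.15 in Ctrl IP, and Bend4 at 25.6 and 7.96 against 0.548 and 1.27. In Skil, Sptb and Bend4 the FLAG IP libraries differed 3-fold or more and still lay well above both controls.

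Noncoding RNAs had the same range. Kcnq1ot1, the imprinted antisense RNA that silences neighbouring genes on the paternal chromosome 7, stood at 890.5 and 183 TMM-scaled CPM in FLAG IP and 89.5 and 49.9 in Ctrl IP, against 7.19 to 15.8 CPM in the inputs. Gm20300 (chromosome 10) stood at 23.3 and 13.7 in FLAG IP and 1.73 and 1.27 in Ctrl IP. The lncRNA 9130227L01Rik (chromosome 1) stood at 30.3 and 18.9 in FLAG IP against 1.55 and 3.75. Gm17634 (chromosome 1) had FLAG IP libraries close together, at 21.7 and 17.2, with 3.93 and 3.08 in Ctrl IP. Mir1a-1hg, the host gene of a muscle miRNA, stood at 24.4 and 6.59 in FLAG IP and 1.28 and 0.907 in Ctrl IP. Atp10d, which the annotation gives as a transcribed pseudogene, had 12.6 and 5.86 TMM-scaled CPM in FLAG IP. In both Ctrl IP libraries its estimates rounded to 0 counts, at 0.00877 and 0.0102 CPM. Against the same floor, which covers counting error only, it was at least 84.4-fold higher. Atp10d passed the filter through the FLAG IP libraries alone. Overlapping and antisense genes share coordinates with some of these RNAs, and Kcnq1ot1 lies inside a protein-coding gene.

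**Figure D3:**
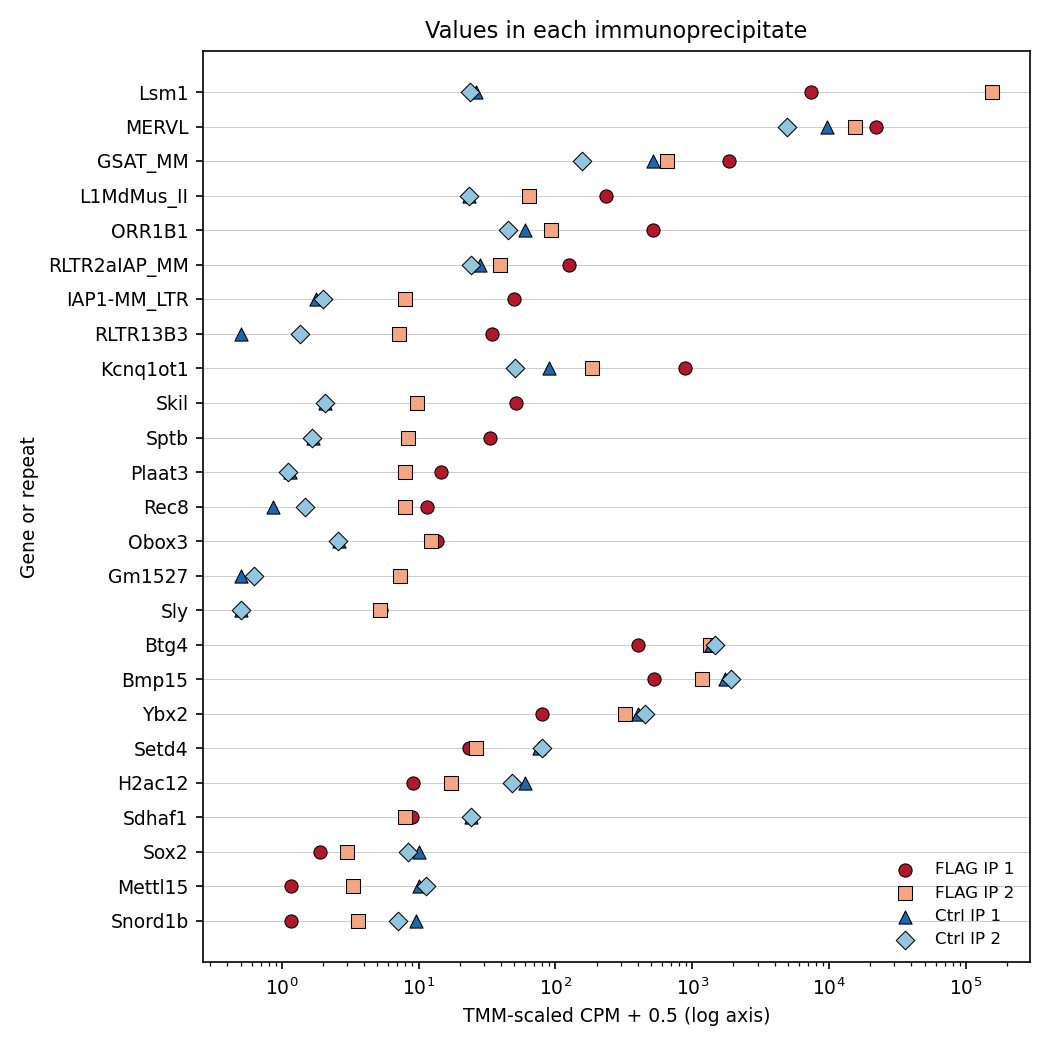
TMM-scaled CPM plus 0.5 (log axis) of 25 named genes and repeats in each immunoprecipitate, with FLAG IP as red circles and light squares and Ctrl IP as blue triangles and light diamonds. From Lsm1 to Sly both FLAG IP points lie to the right of both Ctrl IP points, and from Btg4 to Snord1b both lie to the left.

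Features at least 2-fold lower in both FLAG IP libraries numbered 50, with 43 protein-coding genes, 4 lncRNA genes, 1 pseudogene and 0 repeats among them. Their median length was 1342 nt, where all genes tested had 2730. Setd4, a SET domain methyltransferase gene (chromosome 16, 93583457 to 93604791), stood at 22.8 and 25.5 TMM-scaled CPM in FLAG IP and 74.8 and 79.2 in Ctrl IP. The replicates of each group lay close together in Setd4, its log2 fold change was -1.67 (SE 0.50), and its edgeR adjusted p was 0.151. Sox2, the pluripotency transcription factor (chromosome 3, 34649995 to 34652461), stood at 1.41 and 2.47 in FLAG IP and 9.50 and 7.86 in Ctrl IP. Mettl15, which methylates the small mitochondrial ribosomal RNA, stood at 0.672 and 2.84 in FLAG IP and 9.59 and 10.9 in Ctrl IP. These genes were read in the inputs at levels near those of Ctrl IP for Mettl15, at 7.30 to 10.4 CPM, and below them for Setd4, at 39.4 to 56.4 CPM. Sox2 was lower in the FLAG inputs as well, at 2.77 and 5.33 CPM against 6.81 and 7.07 CPM in the Ctrl inputs.

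Several of the lower genes serve mitochondria. Sdhaf1, an assembly factor of succinate dehydrogenase, stood at 8.40 and 7.50 in FLAG IP and 23.5 and 23.5 in Ctrl IP. Mrpl54, a protein of the large mitochondrial ribosomal subunit, stood at 1.82 and 4.94 in FLAG IP and 14.2 and 13.3 in Ctrl IP. Of 90 respiratory chain and ATP synthase genes, 53 had both FLAG IP libraries below both Ctrl IP libraries and 4 had both above, where 22.2% and 26.8% of all features did. The list had a median log2 difference of -0.65. The 2-fold gap was met by Cox6a1, Ndufaf8 and Ndufc1 in the lower direction and by Cox7c in the higher (all 4 named after their values were seen). Cox6a1, a subunit of cytochrome c oxidase, stood at 14.5 and 14.6 in FLAG IP and 43.8 and 34.3 in Ctrl IP, while Cox7c of the same complex stood at 3.90 and 3.29 against 0.913 and 1.33. Of 78 mitochondrial ribosomal proteins, 38 were lower without overlap and 4 higher. By library size alone these counts of lower genes were 27 of 90 and 23 of 78, so that the extent moved with the scaling. Of all 17549 features 3512 were lower without overlap by library size alone. In FLAG IP replicate 2 alone, under TMM scaling, 67 of the 90 and 54 of the 78 lay below both controls, against 5971 of all 17549 features. The median transcript lengths of the 2 lists were 733 and 1049 nt. The 1510 genes tested under 1000 nt had a median log2 fold change of -0.13. Relative to the mean of Ctrl IP, their median in FLAG IP replicate 2 was -0.31. The part of length in these lists was not tested.

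Gm38423 (chromosome 4) had 0 counts after rounding in both FLAG IP libraries and 5.57 and 7.62 TMM-scaled CPM in Ctrl IP. This puts it at least 56.7-fold lower if FLAG IP held 3 counts in all, a floor that covers counting error only. Gm38423 passed the filter through the Ctrl IP libraries alone. It was read in all 4 inputs, at 4.71 to 7.25 CPM. The lncRNA 1600002D24Rik (chromosome 16) stood at 1.28 and 0.915 in FLAG IP and 10.7 and 7.98 in Ctrl IP.

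Replication-dependent histone mRNAs lack a poly(A) tail and end in a stem-loop, and their decay at the end of DNA synthesis runs through a short U tail bound by LSM1-7. To show that shared end, the stretch around the stem-loop core is given for the more abundant of the histone genes with a 2-fold gap in each direction, with the 8 letters searched for in capitals.
H2ac12: aggctCTTTTCAGagcca
H2ac23: aggctCTTTTCAGagcca
These lie at chr13:22035126-22035143 (minus strand) and chr13:21810897-21810914 (plus strand) of GRCm38.p6. The letters CTTTTCAG, searched on the transcribed strand only in the last 150 bases of each gene, were found in 42 of 60 tested histone genes of this class (70.0%) and in 0.792% of 15659 tested protein-coding genes. H2ac12 stood at 8.54 and 16.8 TMM-scaled CPM in FLAG IP and 59.0 and 47.3 in Ctrl IP, a log2 fold change of -2.07 (SE 0.53) with an unadjusted p of 0.00101 and an edgeR adjusted p of 0.129. H2bc8, at 0 in both FLAG IP libraries and 1.55 and 1.33 in Ctrl IP, was the other histone gene at least 2-fold lower. H2ac23 stood at 5.51 and 6.68 in FLAG IP and 1.004 and 2.24 in Ctrl IP, and H2ac4 at 1.14 and 1.46 against 0.183 and 0.181, the pair at least 2-fold higher (H2bc8, H2ac23 and H2ac4 were named after their values were seen). H2ac4 passed the filter through the FLAG IP libraries alone and H2bc8 through the Ctrl IP libraries alone. The gap was thus met upward by 2 of 60 (3.33%) and downward by 2, against 6.52% and 0.285% of all features tested. The printed ends of H2ac12 and H2ac23 were the same, while their libraries moved in opposite directions.

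Over the 60 histone genes, 23 had both FLAG IP libraries below both Ctrl IP libraries and 5 had both above, where 22.2% and 26.8% of all features did. Their median was -0.59 as a log2 fold change and their median length 483 nt, and the 1510 genes tested under 1000 nt had a median of -0.13. In FLAG IP replicate 2 alone, 26 lay below both controls and 12 above, against 5971 and 6423 of all 17549 features. Among the 42 that hold the letters, 17 were lower and 3 higher without overlap, with a median of -0.61, against the same shares of all features. The most abundant, H2ac18, stood at 403 and 995 in FLAG IP and 1547 and 1281 in Ctrl IP. Histone genes of a type are near-identical in their coding parts, so that the estimates could divide reads between them.

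**Figure D4:**
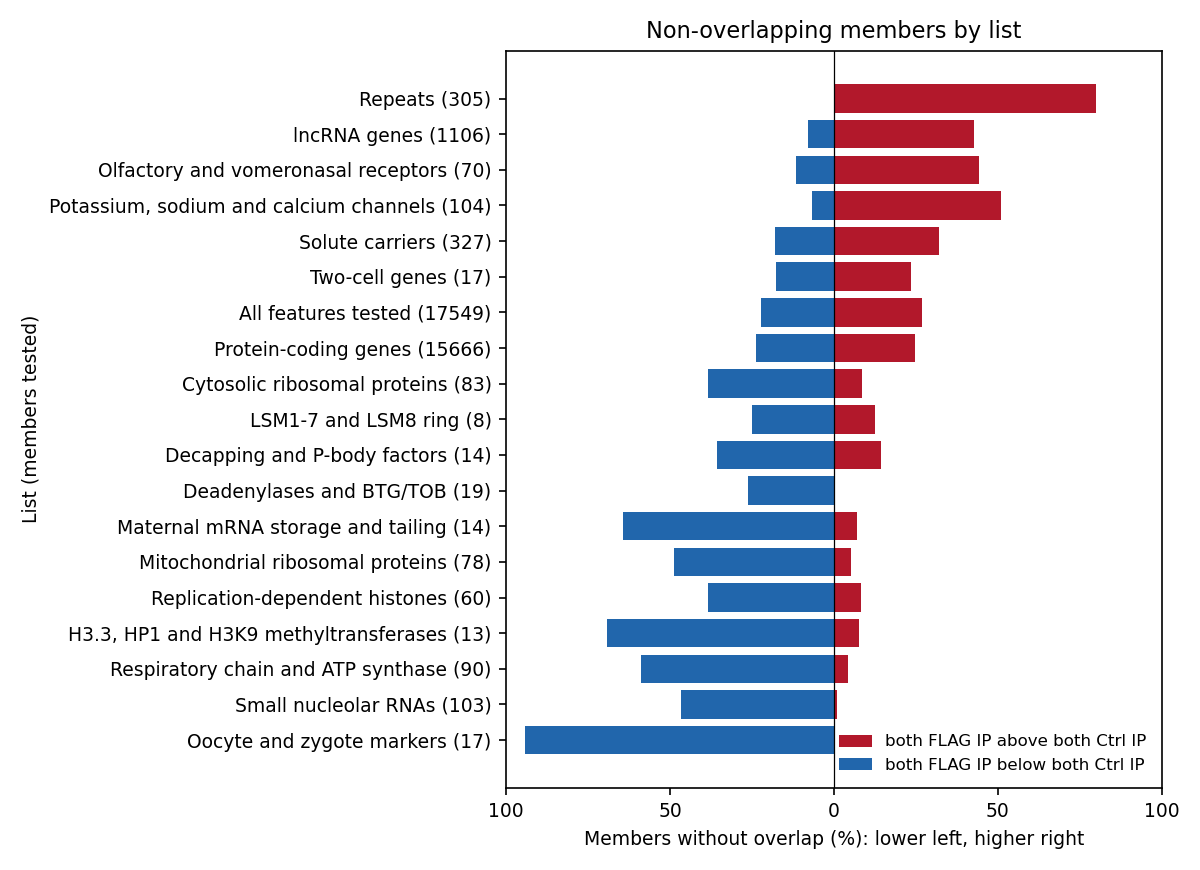
Percentage of the tested members of each list whose 2 FLAG IP libraries both lie above (red, to the right) or both below (blue, to the left) the 2 Ctrl IP libraries, with the number tested beside each name. Repeats stand out to the right (244 of 305) and oocyte and zygote markers to the left (16 of 17), against 26.8% and 22.2% for all features.

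mRNAs that define the oocyte and zygote were lower in FLAG IP, and abundant features in general were lower too. The 2323 tested features above 100 CPM in the inputs had a median log2 fold change of -0.61. Relative to the mean of Ctrl IP their median was -1.46 in replicate 1 and -0.11 in replicate 2. The markers had a median of 486 CPM in the inputs, and their difference from features of that level was not tested. Of 17 marker genes, 16 had both FLAG IP libraries below both Ctrl IP libraries and 0 had both above, where 22.2% and 26.8% of all features did. The median of the markers was -1.07 as a log2 fold change. The count in FLAG IP replicate 2 alone was also 16 below and 0 above. Their summed level was 4093 and 5273 CPM in FLAG IP and 8730 and 8289 CPM in Ctrl IP, where CPM was not scaled by TMM. Bmp15, an oocyte growth factor, stood at 520.4 and 1175 TMM-scaled CPM in FLAG IP and 1728 and 1933 in Ctrl IP. Nlrp5, a subunit of the subcortical maternal complex, stood at 319 and 813 in FLAG IP and 919 and 1013 in Ctrl IP. Zp2, a glycoprotein of the zona pellucida (named after its values were seen), was the 1 marker with a 2-fold gap, at 56.9 and 58.8 in FLAG IP and 121 and 130.3 in Ctrl IP. The defining markers were thus read in all 4 immunoprecipitates. Under library size scaling all 17 were lower without overlap, against 3512 of all 17549 features.

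The proteins that work with LSM1 are encoded by maternal mRNAs of this kind. Among 14 decapping and P-body genes, 5 were lower without overlap and 2 higher, where 22.2% and 26.8% of all features were. By library size alone 10 were lower and 1 higher, against 3512 and 4053 of all 17549 features. In FLAG IP replicate 2 alone, under TMM scaling, 6 lay below both controls and 4 above, against 5971 and 6423 of all 17549 features. The median log2 fold change was -0.51 for this list and -0.46 for the deadenylase list below. Their median input levels were 54.3 and 153 CPM. Features from 10 to 100 CPM in the inputs had a median of -0.38, and those above that -0.61. Eif4enif1, which represses translation through the cap-binding protein, stood at 342 and 950.4 in FLAG IP and 1092 and 1235 in Ctrl IP, and Dcp1a, a decapping cofactor, at 188 and 765 against 675 and 907. Edc3, an enhancer of decapping (named after its values were seen), was the exception with a 2-fold gap, at 22.8 and 2.75 in FLAG IP and 1.10 and 0.665 in Ctrl IP. Among 19 deadenylase and BTG/TOB genes 5 were lower and 0 higher without overlap, a lower share close to that of all features. By library size alone 10 were lower and 2 higher, against the same 3512 and 4053 of all features. Btg4, which recruits the CCR4-NOT deadenylase to maternal mRNAs, stood at 399 and 1341 in FLAG IP and 1369 and 1475 in Ctrl IP, so that replicate 2 lay just under the controls and replicate 1 far under them.

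Among 14 genes of maternal mRNA storage and tailing, 9 were lower and 1 higher without overlap, where 22.2% and 26.8% of all features were. In FLAG IP replicate 2 alone 9 lay below both controls and 4 above, against 5971 and 6423 of all 17549 features. The list had a median log2 fold change of -0.61, the same as the features above 100 CPM in the inputs. Ybx2, the germ cell Y-box protein that coats stored mRNA, stood at 79.6 and 324 in FLAG IP and 402 and 448 in Ctrl IP, and Igf2bp2 at 172 and 344 against 540.2 and 631. Besides Lsm1, the genes of the ring itself gave 0 higher and 2 lower without overlap among 7 under TMM scaling, 0 and 4 with relative log expression factors, and 1 and 0 by library size alone, so that no direction held. Lsm6 stood at 94.5 and 44.2 in FLAG IP and 50.2 and 57.4 in Ctrl IP, with the libraries overlapping. Of 13 genes for H3.3, HP1 and H3K9 methylation, 9 were lower and 1 higher, against the same shares of all features. Their median log2 fold change was -0.63, near the -0.61 of features above 100 CPM in the inputs. The most abundant, Atrx, overlapped at 436 and 1712 against 1356 and 1454, and its log2 fold change of -0.39 was 0.28 without FLAG IP replicate 1.

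Genes first transcribed at the 2-cell stage were mixed. Of 17 tested, 4 were higher and 3 lower without overlap, near the shares of all features (26.8% and 22.2%). The libraries went opposite ways: 12 of the 17 lay below both controls in FLAG IP replicate 1 and 4 above, while in replicate 2 there were 3 below and 11 above. Relative to the mean of Ctrl IP their median was -1.20 in replicate 1 and 0.55 in replicate 2 on the log2 scale. Usp17lc stood at 30.4 and 108 in FLAG IP and 83.1 and 97.1 in Ctrl IP, and Zfp352 at 42.1 and 71.3 against 75.7 and 49.3. Both overlapped and both were read in the pull-downs above their inputs, which lay at 3.19 to 11.8 CPM. Tdpoz2 and Tdpoz8 (named after their values were seen) met the 2-fold gap at low levels, with 3.97 and 2.47 in FLAG IP and 0.0913 and 0.181 in Ctrl IP for the first, and 2.35 and 1.46 against 0 and 0 counts for the second. Both passed the filter through the FLAG IP libraries alone, so that their gaps are in part set by it. Over the 21 genes of this list in the files, tested or not, 3 (14.3%) met the gap, against 5.53% of all features in the files.

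Small nucleolar RNAs, which guide the modification of ribosomal RNA in the nucleolus, were in sum higher in every immunoprecipitate than in every input, and many of them were lower in FLAG IP than in Ctrl IP. To show the kind of RNA concerned, the pair of them named among the widest gaps is printed, with box D in capitals.
Snord1b: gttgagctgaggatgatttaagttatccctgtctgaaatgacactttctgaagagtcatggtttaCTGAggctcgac
Snord11: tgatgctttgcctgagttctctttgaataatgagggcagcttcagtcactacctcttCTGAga
They lie at chr11:116674147-116674223 and chr1:59704808-59704870 (both plus strand, GRCm38.p6) and are 77 and 63 nt long. Snord1b stood at 0.672 and 3.11 TMM-scaled CPM in FLAG IP and 9.13 and 6.53 in Ctrl IP, with 0.156 to 0.317 CPM in the inputs. Snord11 stood at 0.0672 and 2.38 in FLAG IP and 7.21 and 4.72 in Ctrl IP. In each of these FLAG IP replicate 1 was the lowest library, and the gap was under 2-fold.

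Of 103 snoRNAs tested, 48 were lower and 1 higher without overlap, where 22.2% and 26.8% of all features were. The list had a median log2 difference of -0.82. In FLAG IP replicate 2 alone, 82 lay below both controls and 3 above, against 5971 and 6423 of all 17549 features. Snord53 (named after its values were seen) was the 1 that met the 2-fold gap, with 0 and 1.19 in FLAG IP and 2.92 and 4.35 in Ctrl IP. The most abundant, Snora47, did not separate the groups, at 1822 and 894 in FLAG IP and 1466 and 1601 in Ctrl IP. Summed over the list, snoRNAs stood at 9361 and 4475 CPM in FLAG IP, 6787 and 7057 CPM in Ctrl IP and 234 to 369 CPM in the inputs. Ribosomal protein mRNAs had 32 of 83 lower and 7 higher without overlap under TMM scaling, against the same shares of all features. By library size alone 7 were lower and 3 higher, against 3512 and 4053 of all 17549 features. In FLAG IP replicate 2 alone 50 lay below both controls and 9 above under TMM scaling, beside the counts of all features given for the snoRNAs. The list had a median of -0.29 and a median length of 725 nt, and the 1510 genes tested under 1000 nt had a median of -0.13.

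The features that met the 2-fold gap upward were largely those with little RNA in the zygote. Of the 1144, 941 (82.3%) lay under 1 CPM in the inputs, where 30.3% of the tested features and 51.1% of the 25091 features in the files did. Since a feature that is almost absent from the inputs is tested only through its counts in the immunoprecipitates, the shares that follow were taken over all features of an input level, tested or not. The gap was met by 6.38% of the 7787 features under 0.1 CPM in the inputs, 13.6% of the 5039 from 0.1 to 1 CPM, 4.08% of the 4635 from 1 to 10 CPM, 0.245% of the 5307 from 10 to 100 CPM and 0.0430% of the 2323 above that. From 0.1 CPM upward the share thus fell with the input level, and under it the share was lower again. The repeats did not follow these shares: the gap was met by 10 of the 42 under 0.1 CPM, 39 of 146 (26.7%) from 0.1 to 1 CPM, 22 of 115 (19.1%) from 1 to 10 CPM, 9 of 42 (21.4%) from 10 to 100 CPM and 0 of 2 above that. At every input level but the last, a larger share of repeats than of all features met the gap. These input levels were taken over all features after the data were seen, and the differences between shares were not tested.

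**Figure D5:**
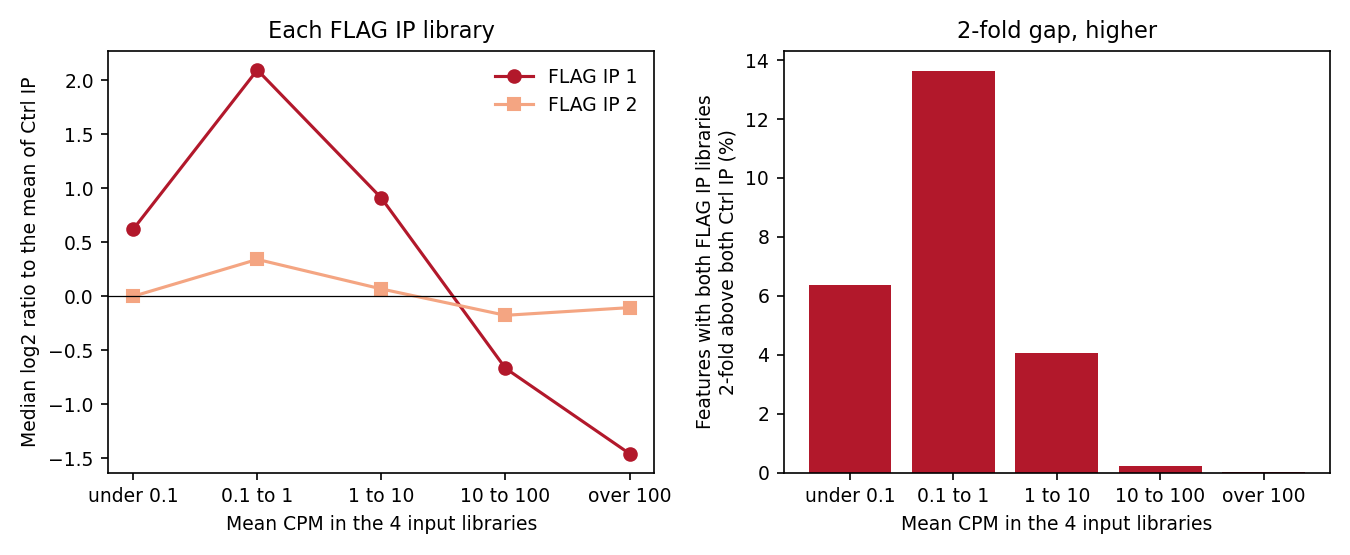
Median log2 ratio of each FLAG IP library to the mean of Ctrl IP (left, lines) and percentage of features with both FLAG IP libraries at least 2-fold above both Ctrl IP libraries (right, bars), for all features in the files in 5 bins of mean CPM in the 4 inputs. FLAG IP replicate 1 stands at 0.62 in the lowest bin, at 2.10 in the next and at -1.46 in the highest, replicate 2 stays between 0.34 and -0.18, and the bars go from 6.38% and 13.6% down to 0.0430%.

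Genes with tissue-restricted expression did not share 1 pattern. Olfactory and vomeronasal receptor genes, which sensory neurons express, number 1463 in the files, of which 31 (2.12%) met the 2-fold gap upward, below the 5.53% of all features in the files. Of these genes 70 were tested, 14 of them through the FLAG IP libraries alone, so that the 17 of 70 with a gap are in part set by the filter. Members with at least 1 count numbered 521 and 275 in FLAG IP and 156 and 194 in Ctrl IP. The most abundant member went the other way, as Olfr976 stood at 29.6 and 53.6 in FLAG IP and 72.0 and 67.6 in Ctrl IP, with 60.5 to 95.6 CPM in the inputs. Of 138 genes in the ion channel list, which was built from gene symbols, 18 (13.0%) met the gap upward. This list had a median of 0.304 CPM in the inputs, and 13.6% of all features from 0.1 to 1 CPM met the gap. Of its 16 tested members with a gap, 7 passed the filter through the FLAG IP libraries alone. Of 394 solute carriers 27 (6.85%) met the gap upward, near the share of all features. Kcnq1ot1, which its symbol places in the ion channel list though it is no channel gene, was the most abundant there and higher in FLAG IP. The next in that list and the most abundant solute carrier were lower in FLAG IP: Kcnh1 stood at 94.8 and 175 against 232 and 261, and Slc45a3 at 232 and 662 against 724 and 739.8.

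Markers of cells other than the zygote were low in all libraries. Cumulus and granulosa markers summed to 131 and 30.9 CPM in FLAG IP and 33.9 and 28.2 CPM in Ctrl IP, immune cell markers to 237 and 49.2 against 83.1 and 68.6, sperm and testis markers to 55.5 and 13.9 against 21.5 and 13.3, and markers of liver, blood, muscle and brain to 124 and 19.0 against 28.5 and 12.3. By these sums FLAG IP replicate 1 was highest in each list. Replicate 2 lay between the controls, or below both for immune cell markers. Of the 14 genes in each list, the members with at least 1 count numbered 14, 11, 11 and 11 for cumulus and granulosa in FLAG IP replicate 1, FLAG IP replicate 2 and the Ctrl IP pair, 14, 12, 11 and 9 for immune cells, 11, 11, 11 and 10 for sperm and testis and 12, 12, 11 and 7 for the last list. Hbb-bs, an adult beta-globin, was the 1 marker at 0 after rounding in all 4 libraries. Amh and Inha of granulosa cells, Ptprc, the common leukocyte antigen, Smcp of the sperm and testis list and Hba-a2 of the last list were at 0 in 3 of the 4. Among the tested markers, Ptgs2 and Cd8a (named after their values were seen) met the 2-fold gap. Ptgs2, a cumulus marker, stood at 3.97 and 2.84 in FLAG IP and 1.004 and 0.363 in Ctrl IP, and Cd8a, of cytotoxic T cells, at 27.6 and 6.68 against 2.10 and 1.51. Gfap, of astrocytes, stood at 22.7 and 1.83 in FLAG IP and 1.83 and 1.27 in Ctrl IP. Other markers did not go this way. Ms4a1 of the immune list was lower, at 16.4 and 32.9 in FLAG IP and 46.1 and 51.5 in Ctrl IP. Cyp19a1 of the granulosa list overlapped, at 8.61 and 11.8 against 10.2 and 17.1. In FLAG IP replicate 2 alone, 6 of 9 tested immune markers lay below both controls and 1 above. For cumulus and granulosa markers 1 of 11 lay below and 5 above. For sperm and testis markers 3 of 8 lay below and 3 above. For the markers of liver, blood, muscle and brain 0 of 8 lay below and 5 above. Of all 17549 features 5971 lay below and 6423 above.

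A set of 7595 genes under 0.1 CPM in the inputs, tested or not, measured the same in each library. At least 1 count was held by 4779 of them (62.9%) in FLAG IP replicate 1, 3176 (41.8%) in replicate 2, 2079 (27.4%) in Ctrl IP replicate 1 and 2391 (31.5%) in Ctrl IP replicate 2. Together they took 1.74% and 0.188% of the counts in FLAG IP and 0.160% and 0.0983% in Ctrl IP. Over these genes the Spearman correlation of the count with transcript length was 0.517 and 0.436 in FLAG IP and 0.347 and 0.344 in Ctrl IP, a description over genes of shared libraries. Reads on genes with little RNA in the inputs were thus highest in FLAG IP replicate 1, where repeats and the markers of other cells were highest too. Their part in the repeat result was not tested.

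The 2 FLAG IP libraries differed in the size of their distance from the controls and, for some genes, in its direction. FLAG IP replicate 1 was at least 2-fold above both Ctrl IP libraries for 5920 features (33.7%) and below both for 3437 (19.6%), with 290 and 0 repeats among them. FLAG IP replicate 2 was above both for 1256 (7.16%) and below for 316 (1.80%), with 76 and 1 repeats. The 76 repeats above both controls in replicate 2 were those of the joint count, and Kcnq1ot1, Skil and Obox3 also met the gap there. GSAT_MM did not reach 2-fold in that library.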

How the data were processed

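The authors deposited, per library, expected counts (NumReads) and TPM of every transcript and repeat, which Salmon gave from trimmed reads, with mm10 RefSeq transcripts and Repbase repeat consensus sequences as targets. The labels name Trimmomatic and the study's methods Cutadapt, and the version of Salmon behind the deposited files is not given in the labels. RIP-seq libraries were made with the SMARTer Stranded Total RNA-Seq Kit, without molecular identifiers, so that floors (3 counts) cover counting error only.

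Each file held 37713 features, of which 37366 were RefSeq transcripts and 347 repeats. A gene of GRCm38.p6 was found for 37072 transcripts, and the other 294 stayed separate. Summing per gene left 25091 features, repeats included, whose sums were rounded because 56.3% of nonzero values were not whole (tolerance 1e-06). TPM were used in 2 alternatives only. The 4 RNA-seq libraries of the series were not used here. Labels gave every group and replicate number.

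The test was edgeR 4.0.16 (quasi-likelihood, TMM, filterByExpr, R 4.3.3) on the 4 immunoprecipitates, with Benjamini-Hochberg adjustment over 17549 features. The study's own test, DESeq2 (1.42.0 here), was an alternative, as were limma 3.58.1 on log2 TPM and with library weights, other scalings and filters, and leaving out each library. The common dispersion was 0.382 and the TMM factors were 1.53 and 0.781 for FLAG IP and 0.961 and 0.872 for Ctrl IP. Scripts were tested on simulated data. Named features are Lsm1, the repeats the study names, all satellites, up to 12 protein-coding genes, 8 other genes and 12 repeats per direction with the widest gap among those with at least 50 counts in both libraries of the higher group, and per gene list up to 3 that passed or else the 2 most abundant, a selection of which is described. The libraries, lists and tests were chosen with earlier results of these data known.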

Additional observations from a re-analysis of the deposited data

How the results depend on the processing

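The number of features called higher and lower in FLAG IP, 0 and 0 by edgeR, depended on the tool, the scaling and the library. DESeq2 gave 390 and 3, relative log expression factors 278 and 3, no filter on low counts 525 and 7, and voom with library weights 205 and 9. Limma on log2 TPM gave 1 and 0, all 8 RIP-seq libraries in the fit 0 and 1, and scaling by library size, the stricter filter, the inputs as baseline, single transcripts, and leaving out Lsm1 or the repeats 0 and 0. With the replicate number as a replicate block the counts were 368 and 13; the labels do not say that a number marks a shared batch, deviations of same-numbered libraries correlated at 0.21 in these 2 pairs, and the pairing was not used. Leaving out 1 library gave 0 to 3707 higher and 0 to 4121 lower, both ends without a Ctrl IP library and without FLAG IP replicate 2. The 1144 features with a 2-fold gap became 318 with 2 CPM added, 373 under a filter of at least 50 counts in 2 libraries, 825 by library size and 1143 by relative log expression, 1387 over all features in the files, tested or not, and 1256 to 5920 with 1 library left out (the last 2 chosen after seeing the data). With Lsm1 left out of the denominator the repeat share in FLAG IP was 12.9% and 2.99%, and as a share of TPM it was 8.63% and 0.993%, against 0.858% and 0.501% in Ctrl IP.

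With 1 library left out, directions turned without FLAG IP replicate 1 for Atrx (range -1.81 to 0.28), Lsm6 (-0.29 to 0.69), SATMIN (-0.496 to 4.42), Usp17lc (-1.69 to 0.25) and Zfp352 (-0.69 to 0.19), and with the inputs as baseline for MERVL (-0.10), Rec8 (-0.56) and Snord53 (0.10), all as log2 fold changes. Snora47 turned to 0.31 by library size, 0.17 under the stricter filter, 0.19 on TPM and 0.13 without FLAG IP replicate 2 (range -0.78 to 0.13). Zfp352 turned to 0.052, 0.082 and 0.27 under the same first 3 and to 0.10 without Ctrl IP replicate 1. The cause was not tested in any of these.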
